A study of Mus musculus with 19 samples.

Results

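The net change from wild-type (WT) mouse myoblasts to fused myotubes was described from 7 of the 19 libraries of the series, namely 3 libraries of proliferating primary myoblasts labelled 24 h and 4 of fused myotubes labelled 72 h. Members were chosen by title alone, and the change in each gene was tested as fused myotubes minus myoblasts. Primary myoblasts are muscle precursor cells taken from tissue, not an immortal line. The series also holds 3 WT libraries of differentiated myotubes at 48 h, used here for the path between both ends. A further 9 libraries at the same stages carry a Glud1-deficient label and are called KO-labelled below. RNA was measured as messenger RNA, with estimated counts per transcript summed to genes. The labels number the replicates as biological but do not say whether they are separate animals or cultures, so p-values measure only the spread between these libraries, which may be technical. The names of the deposited files mark the WT libraries as KO and the KO-labelled ones as KOT, so what WT stands for rests on the labels, which were followed.

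Skeletal muscle forms when dividing myoblasts leave the cell cycle, switch on muscle genes under the myogenic transcription factors and fuse into multinucleate fibres. The contractile unit of a fibre is the sarcomere, built of thick myosin filaments and thin actin filaments between Z-discs. Many of its proteins, and many metabolic enzymes of muscle, are encoded by genes that have a close relative in use in most other cells.

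The WT myoblast libraries held 19984984 to 26169264 estimated counts and the WT fused myotube libraries 17055191 to 26665077. On the log2 expression of all genes tested, the first principal component held 94.7% of the variance of the 7 libraries and separated both groups. Glud1, the gene named in the labels, was at 192, 191 and 184 CPM (estimated counts of a gene relative to the library's total, scaled by the trimmed mean of M-values, TMM) in WT myoblasts and at 133, 141, 136 and 131 CPM in WT fused myotubes. It lay at 185 to 190 CPM in KO-labelled myoblasts, so its count on this scale did not tell the labels apart. All 8 of the myotube markers were higher in the fused libraries, and 6 of 8 markers of proliferating myoblasts were lower, with Myf5 and Cdh15 higher. Of all genes tested, 42.2% were higher and 43.4% lower. In summed TPM (a transcript level per length and depth), markers of fibroblasts and fibro-adipogenic cells were at 17.3 to 18.6 in myoblasts and 0.88 to 1.99 in fused myotubes, with 4 of the list tested and Lum and Dpt at 0. Endothelial markers were at 3.68 to 6 and 2.9 to 6.17 TPM, and Emcn and Tie1 were at 0. Leukocyte markers were at 1.93 to 2.27 and 0.415 to 0.994 TPM, with C1qa, C1qb, Tyrobp and Cd52 at 0. Smooth muscle markers summed to 1670 to 1720 and 2980 to 3050 TPM, nearly all of it Acta2 and Des, which muscle cells also express. Of the 8 tested, 2 were higher, 4 lower and 2 not called. In such bulk samples, fewer cells of a type and less RNA per cell cannot be told apart.

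Of 15123 genes tested, 12936 (85.5%) differed between WT fused myotubes and WT myoblasts at an adjusted p under 0.05 (edgeR quasi-likelihood test, p-values adjusted over all genes tested by Benjamini and Hochberg). There were 6380 genes higher (42.2%) and 6556 lower (43.4%) in fused myotubes. A change of at least 2-fold was found in 7631 genes (50.5%), of which 3740 were higher and 3891 lower. At least 16-fold separated the ends in 793 genes that were higher (5.24%) and 722 that were lower (4.77%). The typical gene moved by a median absolute log2 fold change of 1.04, against a median standard error of 0.0765. The values of the 3 and 4 libraries did not overlap in 12620 genes (83.4%). Because most genes were called, a call by itself sets no gene apart, and the sizes carry the description that follows. Directions are relative to TMM scaling: by library size alone the median log2 fold change over all genes was -0.33 instead of -0.01, and 5147 genes were higher against 7884 lower. Among the biotypes, antisense genes had the highest median, 0.92, with 182 higher and 60 lower of 357 tested; whether reads were counted by strand is not stated, so they cannot be separated from the genes they overlap.

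The promoters of 3 genes that rose and 2 that fell are printed to show the sequences at their starts. They were picked after their letters were seen, and the same search marked no match in the promoters of Mybpc2, Hhatl, Tnnc1, Cxcl12, Nuf2, Eef1a1 and Rpl41, which were named by the same rules. Acta1 and Mylpf are among the most abundant genes of fused myotubes, Myh8 is among the 12 largest rises by fold, and Mki67 and Top2a are among the 12 largest falls. Each runs from 250 bases before to 50 bases after the RefSeq start, on the gene's own strand, in build GRCm38.p6. Capitals mark matches, on either strand, to the E-box CAGCTG, the site bound by the myogenic factors, to the MEF2 site, to the CArG box, which serum response factor binds, to the TATA box TATAAA, to the CCAAT box and to TTTGAA, the core of the cell cycle homology region (CHR). Acta1, skeletal actin, lies at chr8:123894726-123895025 on the minus strand, Mylpf, the fast regulatory myosin light chain, at chr7:127211358-127211657 on the plus strand, and Myh8, the perinatal myosin heavy chain, at chr11:67276874-67277173 on the plus strand. Mki67, a marker of dividing cells, lies at chr7:135716330-135716629, and Top2a, a topoisomerase needed to separate chromosomes, at chr11:99024140-99024439, both on the minus strand.
Acta1: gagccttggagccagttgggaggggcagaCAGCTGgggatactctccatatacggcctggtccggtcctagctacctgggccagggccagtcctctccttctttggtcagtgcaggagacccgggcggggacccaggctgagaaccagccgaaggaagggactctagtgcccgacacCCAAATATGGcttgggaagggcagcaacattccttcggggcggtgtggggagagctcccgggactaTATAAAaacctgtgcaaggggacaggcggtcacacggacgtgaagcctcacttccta
Mylpf: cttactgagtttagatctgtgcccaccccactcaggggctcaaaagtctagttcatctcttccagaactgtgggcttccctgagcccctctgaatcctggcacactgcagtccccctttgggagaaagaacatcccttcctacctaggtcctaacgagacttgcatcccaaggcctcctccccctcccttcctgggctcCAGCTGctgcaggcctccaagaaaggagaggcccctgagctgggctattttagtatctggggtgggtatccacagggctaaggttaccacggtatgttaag
Myh8: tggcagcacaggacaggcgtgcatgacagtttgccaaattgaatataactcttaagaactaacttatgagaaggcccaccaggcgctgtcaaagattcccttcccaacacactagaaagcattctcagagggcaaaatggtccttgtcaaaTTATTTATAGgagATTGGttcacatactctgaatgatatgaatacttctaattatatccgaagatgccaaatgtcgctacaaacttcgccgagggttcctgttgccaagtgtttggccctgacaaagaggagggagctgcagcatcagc
Mki67: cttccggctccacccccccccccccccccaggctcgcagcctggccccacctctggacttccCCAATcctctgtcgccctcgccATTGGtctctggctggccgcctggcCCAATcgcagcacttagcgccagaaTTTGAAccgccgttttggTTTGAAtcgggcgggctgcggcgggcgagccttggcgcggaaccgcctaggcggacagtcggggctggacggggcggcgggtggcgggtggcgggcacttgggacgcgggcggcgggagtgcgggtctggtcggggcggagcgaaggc
Top2a: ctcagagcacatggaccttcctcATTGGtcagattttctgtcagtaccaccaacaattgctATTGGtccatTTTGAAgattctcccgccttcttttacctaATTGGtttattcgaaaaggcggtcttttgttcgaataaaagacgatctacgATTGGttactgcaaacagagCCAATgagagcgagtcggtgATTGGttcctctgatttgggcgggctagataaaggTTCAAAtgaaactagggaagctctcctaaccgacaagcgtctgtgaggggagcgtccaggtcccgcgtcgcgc
In order along the strand, Acta1 shows 1 E-box, 1 CArG box and 1 TATAAA. Mylpf shows 1 E-box. Myh8 shows a MEF2 site that overlaps TATAAA, followed by 1 CCAAT, all on the opposite strand. Mki67 holds 3 CCAAT and 2 TTTGAA, and Top2a holds 6 CCAAT and 2 TTTGAA.

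The same letters were counted over the 7203 genes tested whose RefSeq promoter lay within 50 bases of the start of their leading transcript. CAGCTG was found in 15.3% of these promoters, in 28.6% of the 357 whose gene was at least 16-fold higher, and in 14.9% of the 356 whose gene was at least 16-fold lower. The looser E-box CANNTG, which includes CAGCTG, was in 63.3%, 83.2% and 61.8%. The MEF2 site was in 1.51%, 8.4% and 1.12%, and TATAAA, which can overlap it, in 7.55%, 15.7% and 8.99%. The CArG box was in 1.28%, 2.52% and 1.12%. CCAAT was in 40.0% of all, 30.8% of those higher and 47.8% of those lower, TTTGAA in 11.7%, 12.3% and 23.3%, and TTCCCGC, the E2F site, in 8.36%, 3.64% and 14.0%. These shares are descriptions of letters and not of binding.

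The 15 most abundant genes of the myoblast end included Eef1a1, Rps12, S100a6 and Vim, beside mitochondrially encoded genes, Gapdh and H19. Eef1a1, the elongation factor that brings tRNA to the ribosome, led with 14850, 15460 and 15790 TPM in myoblasts and stood at 5845, 6194, 6042 and 6093 TPM in fused myotubes. The groups did not overlap, with a log2 fold change of -1.0 ± 0.047 (SE, adjusted p 2.65e-17 in the edgeR fit). Rps12, a ribosomal protein, followed at 10820, 9777 and 10260 TPM and fell to 2209, 2252, 2432 and 2312 TPM (log2 fold change -1.76 ± 0.055). S100a6, a calcium-binding protein, stood at 8640, 7768 and 7780 TPM in myoblasts and at 1213, 1219, 1268 and 1342 TPM in fused myotubes. Vim, the intermediate filament of mesenchymal cells, stood at 7623, 7530 and 8086 TPM and at 1209, 1231, 1282 and 1358 TPM. Both left the leading ranks, with log2 fold changes of -2.31 ± 0.061 and -2.34 ± 0.056. The level of Vim per length rests on a 535-base transcript that held 48.6% of its TPM in myoblasts and 48.0% in fused myotubes.

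At the fused end 8 of the 15 most abundant genes encoded parts of the contractile apparatus, and mt-Co1, H19, Gapdh and Aldoa were among the others. Mylpf stood at 1357, 1298 and 1427 TPM in myoblasts and at 24000, 25670, 27120 and 25510 TPM in fused myotubes, where it was the most abundant gene (log2 fold change 4.44 ± 0.062, edgeR adjusted p 1.48e-27). Myl1, the fast essential light chain of myosin, stood at 242, 218 and 267 TPM and at 17700, 18480, 18250 and 17920 TPM (log2 fold change 6.45 ± 0.056). Acta1 stood at 549, 487 and 582 TPM and at 11970, 12390, 12980 and 12760 TPM (log2 fold change 4.77 ± 0.066). In these 3 genes every fused library lay more than an order of magnitude above every myoblast library. Myl4, the embryonic light chain, rose from a mean of 209 to 11800 TPM, Tnnc2, the fast calcium-binding troponin, from 106 to 9710 TPM, and Tnnt3, fast troponin T, from 177 to 6814 TPM. Aldoa, a glycolytic enzyme, rose from 1245 to 9664 TPM.

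Some genes were dominant at both ends. H19, an imprinted noncoding RNA, was at 6276, 6079 and 6458 TPM in myoblasts and 13870, 13910, 14850 and 13770 TPM in fused myotubes. Gapdh, a glycolytic enzyme and common reference gene, was at 5739, 5542 and 6048 TPM and at 10750, 11290, 11310 and 10430 TPM. Its log2 fold change of 1.19 ± 0.058 (edgeR adjusted p 1.48e-16) set the ends apart, with no overlap between the groups. The mitochondrially encoded mt-Co1, a subunit of cytochrome c oxidase, rose from a mean of 5511 to 15080 TPM. Of the other common reference genes, Actb, non-muscle beta-actin, was among the largest losses, at 4903, 4670 and 5106 TPM in myoblasts and 88.4, 81.5, 82.9 and 85.4 TPM in fused myotubes (log2 fold change -5.67 ± 0.052). Ftl1, the light chain of the iron store ferritin, fell from a mean of 3697 to 134 TPM (log2 fold change -4.52 ± 0.050).

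**Figure D1:**
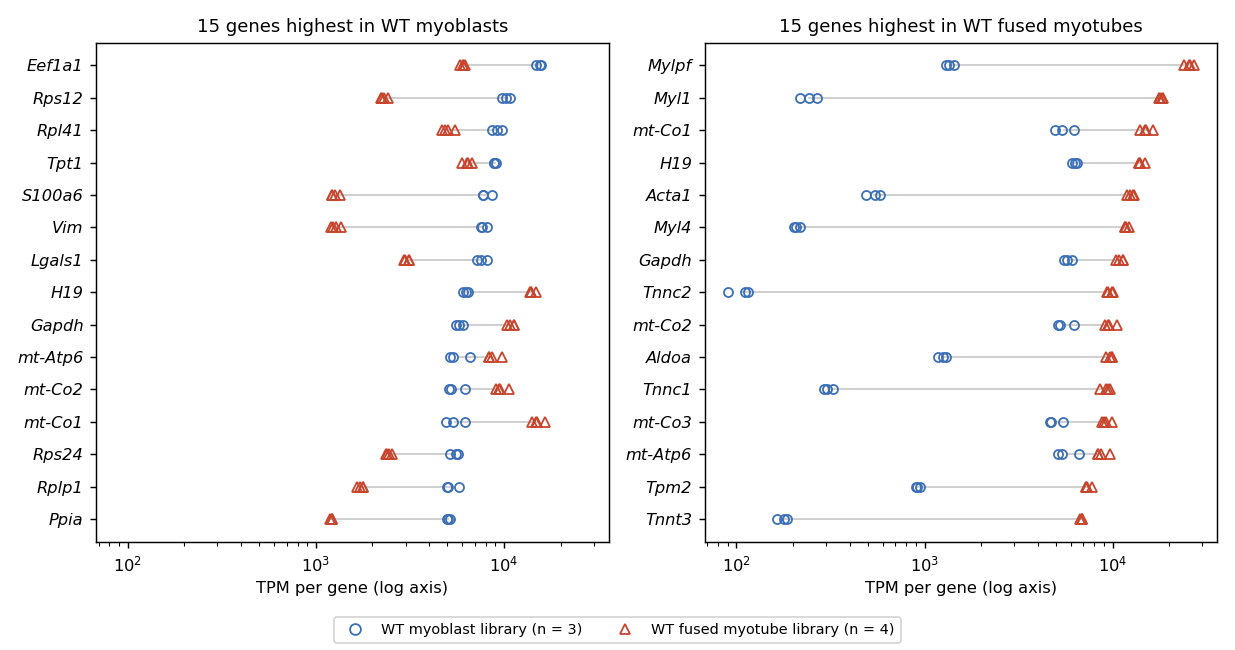
TPM per gene on a log axis for the 15 genes with the highest mean in WT myoblasts (left) and in WT fused myotubes (right), with a circle for each of 3 myoblast libraries and a triangle for each of 4 fused myotube libraries, and a grey line between the means. Libraries of a group sit close together, and Myl1 moves from a mean of 243 to 18090 TPM while Eef1a1 moves from 15370 to 6043 TPM.

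RNA was held by fewer genes at the fused end. The 100 most abundant genes of each library held 34.1%, 34.0% and 34.5% of all TPM in myoblasts and 38.4%, 39.5%, 40.0% and 39.9% in fused myotubes. The difference of 5.23 percentage points gave p = 0.0571 by an exact two-sided permutation test, the smallest that 4 against 3 libraries allow. The 10 most abundant genes held 8.59% ± 0.120 (SD, n = 3) and 13.8% ± 0.376 (SD, n = 4). Mitochondrially encoded genes held 3.77% and 7.47%, and without them the difference in the top 100 was 2.52 points. Across the path the mitochondrial share was not highest at the end, since it stood at 9.75%, 11.7% and 10.9% in the differentiated libraries. Between 255 and 264 genes made up 50% of TPM in myoblasts, against 192 to 212 in fused myotubes. Genes that were at least 2-fold higher at the end held 13% of TPM in myoblasts and 50.1% in fused myotubes, and those at least 2-fold lower held 33.6% and 7.72%; these genes were chosen by this contrast, so the shares only describe its size. The number of genes at 1 TPM or more was 11716 to 11785 in myoblasts and 11463 to 11555 in fused myotubes.

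Among the dominant genes, the shares of transcripts shifted most in Tpm2, Aldoa and Rps24. In Tpm2, ENSMUST00000107914 led at both ends and went from 81.3% ± 2.23 of the gene's TPM in myoblasts (SD, n = 3) to 39.8% ± 0.91 in fused myotubes (SD, n = 4). In Aldoa, ENSMUST00000032934 held 71.7% ± 1.48 in myoblasts and 33.6% ± 1.65 in fused myotubes, while ENSMUST00000106348 went from 1.47% ± 0.199 to 34.6% ± 1.48. In Rps24, a ribosomal protein with alternative 3' exons, ENSMUST00000169826 went from 49.3% ± 2.87 to 11.8% ± 0.492 and ENSMUST00000112384 from 46.0% ± 2.73 to 54.2% ± 1.12. In each of these transcripts the means of both ends lay further apart than the SDs. The ranges of mean ± SD of the leading 2 overlapped in fused myotubes for Aldoa and in myoblasts for Rps24. In Tnnt3 the leading pair was level in myoblasts: ENSMUST00000105942 held 23.8% ± 8.10 in myoblasts and 22.7% ± 1.43 in fused myotubes and ENSMUST00000146804 23.8% ± 5.32 and 28.7% ± 0.783.

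Of the 12 largest falls, 6 were genes of cell division and DNA replication and the others were of several kinds. Mki67 was at 182, 216 and 199 CPM in myoblasts and at 0.274, 0, 0.0617 and 0.165 CPM in fused myotubes (log2 fold change -10.41 ± 0.52). Top2a was at 394, 404 and 381 CPM and at 0.548, 0.444, 0.37 and 0.371 CPM (log2 fold change -9.80 ± 0.27). Cxcl12, a chemokine that guides migrating cells, was at 307, 308 and 290.1 CPM and at 0.228, 0.0634, 0.247 and 0.165 CPM (log2 fold change -10.67 ± 0.48). These are levels of at most 12 reads in a fused library, so the folds are imprecise, and the groups did not overlap. Cd300ld3, an immunoglobulin-like receptor gene, was at 32.9, 36.6 and 38.9 CPM in myoblasts and at 0 in all 4 fused libraries, at least 227-fold lower against a floor of 3 counts in each library. The other genes of the 12 largest falls were Sgo1, Nuf2 and Ttk, which act at the mitotic spindle and centromere, Pclaf, a partner of the replication clamp, and Ccn3, Cd53, Fam131b and Mndal.

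The 12 largest rises included the myosin heavy chain genes Myh2, Myh4 and Myh8 beside genes of other kinds. Hephl1, a relative of the copper-dependent iron oxidase hephaestin, was at 0.0703, 0.13 and 0.0334 CPM in myoblasts, at most 3 reads, and at 104, 104, 93.6 and 96.8 CPM in fused myotubes. Gabrd, a subunit of the GABA-A receptor, had 1 read in 1 myoblast library and was at 17.3, 16.8, 19.6 and 18.1 CPM in fused myotubes. The antisense RNA gene Myhas, which lies among the fast myosin genes, was at 0 in myoblasts and at 8.77, 8.88, 15.2 and 10.1 CPM in fused myotubes, at least 96.1-fold higher against the same floor. Its reads cannot be told from those of overlapping genes without strand. Myh8 was at 17.4, 17.9 and 20.7 CPM and at 6822, 6683, 7166 and 7031 CPM (log2 fold change 8.53 ± 0.073), a gain that rests on many reads at both ends. Myh4, the fastest myosin heavy chain, was at 1.62, 1.04 and 1.6 CPM and at 590.2, 556, 568 and 448 CPM (log2 fold change 8.54 ± 0.20). The rest of the 12 were Myoz3, Mybpc2, Ckmt2, Myh2, Sh2d4a, Hrh3 and Hhatl.

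The lists of sarcomere genes rose almost whole, where 42.2% of all genes rose. All 18 thick filament genes were higher, with a median log2 fold change of 6.02 against -0.01 for all genes tested, and their summed level went from 2040 to 70700 TPM. Of 20 thin filament genes, 19 rose (median 5.19) and Tpm3, a slow-muscle and non-muscle tropomyosin, was the exception. Its log2 fold change was -0.30 ± 0.033 on scaled counts, while its level per length was 631 TPM in myoblasts and 842 TPM in fused myotubes, so its direction depends on the correction for length. Of 26 Z-disc and M-band genes, 25 rose (median 4.84), among them Actn2, muscle alpha-actinin, from 20.2 to 1784 TPM and Myom2, an M-band protein, from 6.88 to 702 TPM. Ankrd1, a stress-responsive ankyrin repeat protein of the Z-disc region, went the other way, from 1812, 1802 and 1687 TPM to 373, 368, 349 and 374 TPM (log2 fold change -2.0 ± 0.036).

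Genes of excitation-contraction coupling, which turn an action potential into calcium release, rose in all 26 cases (median 4.91), where 42.2% of all genes rose. Casq1 and Atp2a1, the fast-muscle calcium store and calcium pump, had log2 fold changes of 7.68 ± 0.083 and 7.34 ± 0.059, and Scn4a, the muscle sodium channel, 7.19 ± 0.18. At the neuromuscular junction 20 of 21 genes rose (median 2.09). Chrng, the embryonic subunit of the acetylcholine receptor, was at 152, 143 and 164 TPM in myoblasts and at 804, 763, 795 and 755 TPM in fused myotubes. Chrne, its adult counterpart, was at 0.141, 0 and 0 TPM and at 6.73, 7.94, 4.86 and 4.41 TPM, so the embryonic form remained far above it. Agrn, the secreted organiser of the junction, fell by 2.28 ± 0.064 on the log2 scale. Of 12 fusion and adhesion genes, 10 rose (median 2.07), including Mymk, the fusogen myomaker, from 64.8 to 1550 TPM, and Cav3, muscle caveolin, from 12.9 to 329 TPM, while Myof, a ferlin, and Cdh2, N-cadherin, fell.

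The list of myogenic regulators did not move together: 8 rose and 10 fell of 18 (median -0.24), where 42.2% of all genes rose and 43.4% fell. The list mixes activators with inhibitors. Id1, Id2 and Id3, which inhibit the myogenic factors, fell, with log2 fold changes of -2.49, -3.84 and -4.06. The stem cell factors Pax7 and Pax3 fell too. Among those that rose was Lmod3, a thin filament gene that is counted in that list as well. Mef2c, a partner of the myogenic factors, went from 19.6, 15.7 and 20.4 TPM to 953, 895, 951 and 987 TPM. Myf6, the late myogenic factor MRF4, went from 2.48, 2.78 and 2.96 TPM to 204, 203, 190.2 and 186 TPM. Myog, myogenin, rose from a mean of 119.7 to 780.1 TPM after 2403, 2279 and 2464 TPM in differentiated myotubes, so the net log2 fold change of 2.96 ± 0.063 is less than its excursion. Chosen after their values were seen, Myod1, the determination factor, fell by 1.21 on the log2 scale and Myf5, its early relative, rose by 0.58 ± 0.042. Of 22 satellite cell and Notch genes, 16 fell, 4 rose and 2 were not called (median -0.94). Pax7, which marks muscle stem cells, fell by 4.84 ± 0.11 on the log2 scale, and Spry1, an inhibitor of growth factor signalling in those cells, rose by 2.91 ± 0.062.

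The mitosis and DNA replication lists fell almost whole, where 43.4% of all genes fell. All 38 mitosis genes were lower (median -7.37), from a summed 3370 to 66.1 TPM. Of 36 DNA replication genes, 35 were lower (median -4.10), among them Pcna, the sliding clamp, from 393 to 30.8 TPM and Rrm2, of ribonucleotide reductase, from 446 to 11.9 TPM. E2f2, a transcription factor of the E2F family, was the exception at 10, 8.47 and 8.53 TPM in myoblasts and 28.1, 27.2, 24.9 and 33.3 TPM in fused myotubes (log2 fold change 1.85 ± 0.060). In the list of cell cycle inhibitors and cyclins D, 12 of 18 rose, 5 fell and 1 was not called (median 0.63), where 42.2% of all genes rose. Cdkn1a, the inhibitor p21, stood at 396, 376 and 384 TPM and at 2267, 2238, 2274 and 2341 TPM. The D cyclins parted: Ccnd1 fell from a mean of 503 to 3.59 TPM and Ccnd2 from 185 to 18.5 TPM, while Ccnd3 rose from 314 to 904 TPM.

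Most genes of the energy metabolism lists rose as well, against 42.2% of all genes. Of 25 glycolysis and glycogen genes, 19 rose and 6 fell (median 1.66), of 21 genes of the TCA cycle 19 rose and 2 fell (median 1.35), and of 30 nuclear genes of the respiratory chain 28 rose and 2 fell (median 1.41). Hk1, Pgk1 and Pkm of glycolysis rose by 0.23, 0.16 and 0.17 on the log2 scale of scaled counts but not in mean TPM. Eno1 fell on that scale and was higher in mean TPM. All 13 mitochondrially encoded mRNAs rose (median 1.39), so the nuclear and mitochondrial parts of the chain had similar medians. Pcx, pyruvate carboxylase, led the TCA list with a log2 fold change of 3.69 ± 0.055, and Suclg2, the GTP-forming subunit of succinyl-CoA ligase, fell by 1.38 ± 0.046 while Sucla2, the ATP-forming one, rose by 1.90 ± 0.035. Of 10 genes of creatine metabolism and energy buffering, 9 rose (median 2.85) and Slc6a8, the creatine transporter, fell by 0.38 ± 0.039 on the log2 scale. Of 23 fatty acid genes, 19 rose, 3 fell and 1 was not called (median 1.6), with Cd36, a fatty acid transporter, rising by 5.96 ± 0.14 and Cpt1a falling by 3.99 ± 0.071. Of 19 cholesterol synthesis genes, 15 rose and 4 fell (median 0.74).

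Most members of the ribosomal, nucleolar, non-muscle cytoskeleton and matrix lists fell, against 43.4% of all genes. Of 37 cytosolic ribosomal protein genes, 36 fell, by a median log2 fold change of -0.84, and their summed level went from 103000 to 46800 TPM. The 1 that rose was Rpl3l, the muscle relative of Rpl3. Of 24 nucleolar genes, 20 fell, 3 rose and 1 was not called (median -1.14), and Npm1, nucleophosmin, went from a mean of 2793 to 339 TPM and Myc from 50.7 to 4.26 TPM. Of 32 non-muscle cytoskeleton and adhesion genes, 26 fell, 4 rose and 2 were not called (median -2.41), with Tagln2, an actin-bundling protein, falling by 8.43 ± 0.13 and Vcl, vinculin, rising by 0.61 ± 0.046. Of 27 matrix genes, 21 fell, 4 rose and 2 were not called (median -3.59), Fn1, fibronectin, from 131 to 2.59 TPM and Sparc from 1250 to 283 TPM. Of the 4 fibroblast markers tested, Ly6a, Smoc2 and Cd248 fell and Pdgfra rose by 1.29 ± 0.21, and their part in the matrix list was not tested. Of 18 interferon and antigen presentation genes, 9 fell, 4 rose and 5 were not called (median -0.92), near the 43.4% of all genes that fell.

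Among genes of muscle growth and breakdown, Igf2, a growth factor, stood at 256, 253 and 272 TPM in myoblasts and at 1178, 1205, 1241 and 1292 TPM in fused myotubes, after 2357 to 2475 TPM in between. Mstn, myostatin, a brake on muscle growth, rose from a mean of 4.75 to 96.4 TPM, and Trim63, the ubiquitin ligase MuRF1, from 2.18 to 66.2 TPM. In the lists that hold them, 10 of 20 growth factor genes rose and 8 fell (median 0.21), and 14 of 20 atrophy, autophagy and lysosome genes rose and 4 fell (median 0.89). The share called in either list is near the 85.5% of all genes, and 42.2% of all genes rose.

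**Figure D2:**
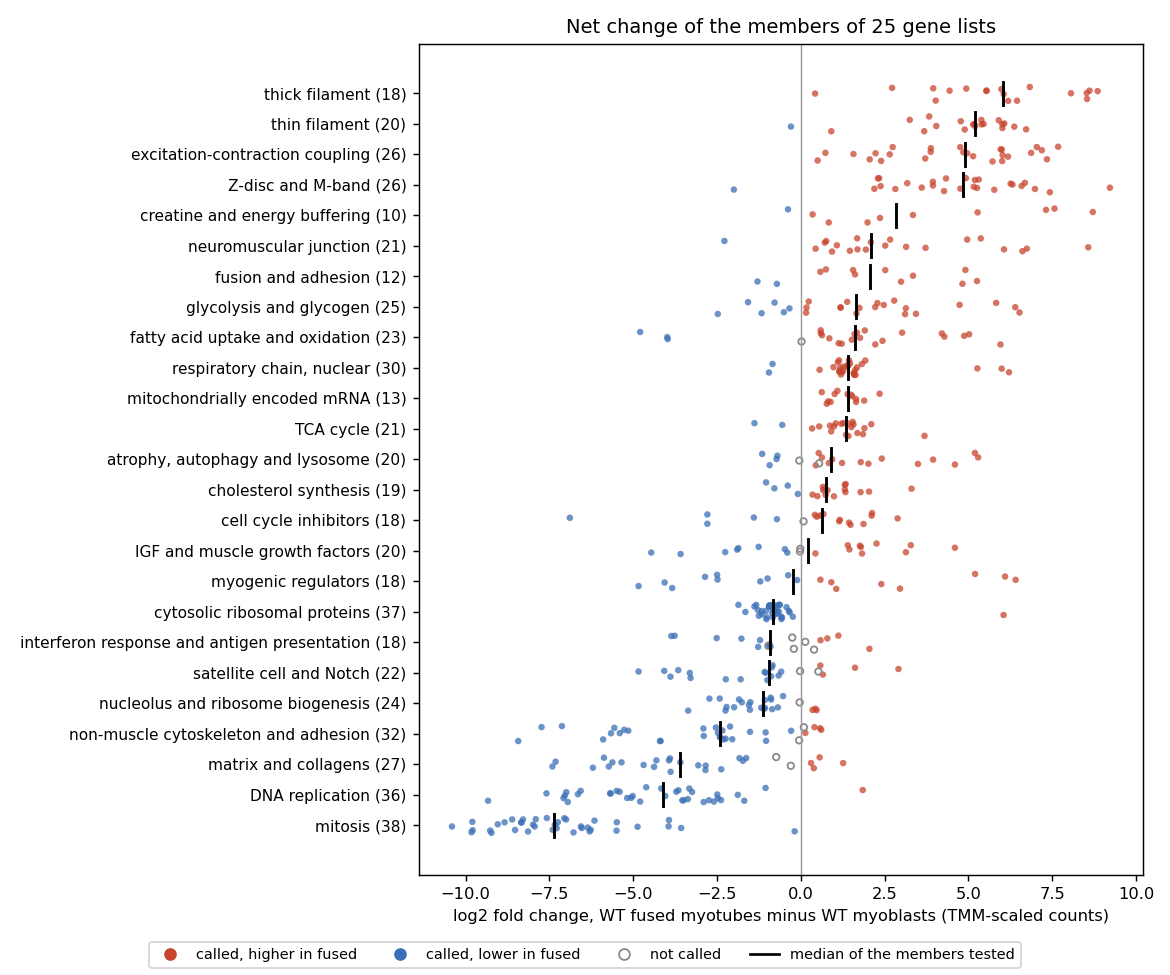
Net log2 fold change of each tested member of 25 gene lists, as fused myotubes minus myoblasts on TMM-scaled counts, with red for genes called higher, blue for genes called lower, open circles for genes not called and a black bar for the list's median. The thick filament list sits highest, with a median of 6.02, and the mitosis list lowest, with a median of -7.37.

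The exchange between related genes was followed in 33 pairs of a muscle member and a relative, called the broad member although Casq2, the cardiac calsequestrin, is among them. The counts cover these 33 pairs alone. The muscle member was called higher in 33 pairs, and the broad member was lower in 26 and higher in 7, where 42.2% of all genes were higher and 43.4% lower. By TPM the muscle member exceeded the broad one in 5 pairs in myoblasts and in 27 pairs in fused myotubes. Its share of the pair was higher in every fused library than in any myoblast library in 32 of 33 pairs. For single genes, the scaled counts of both groups did not overlap, in either direction, in 83.4% of all genes tested. The pairs were picked for their known muscle use, so the direction of the muscle member is a description, and close relatives can exchange estimated counts.

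In the actin pair, Acta1 held 9.91% ± 0.415 of the summed TPM in myoblasts (SD, n = 3) and 99.3% ± 0.043 in fused myotubes (SD, n = 4). For the tropomyosins, Tpm2 rose from 920.5 to 7373 TPM while Tpm4 went from 815, 813 and 876 TPM to 7.21, 6.47, 1.82 and 4.31 TPM, which took Tpm2 from 52.5% to 99.9%. Flna, the non-muscle filamin, went from 422, 436 and 423 TPM to 2.63, 2.41, 2.45 and 1.83 TPM, and the muscle filamin Flnc went from 14.0% to 99.2% of the pair. Phosphoglycerate mutase, a glycolytic enzyme, passed from Pgam1, at 459, 433 and 452 and then 72.0, 66.0, 61.0 and 65.0 TPM, to Pgam2, at 35.7, 34.2 and 41.0 and then 1836, 1870, 1896 and 1639 TPM. The share of Pgam2 went from 7.62% to 96.5%. In cytochrome c oxidase, Cox6a2 went from 2.01% to 72.0% of its pair and Cox8b from 2.58% to 65.5%, whereas Cox7a1 reached 19.2%.

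Other exchanges were partial or did not occur. Both members rose for the calcium pumps, where Atp2a1 went from 11.4% to 78.7% against Atp2a2, and for creatine kinase, where Ckm went from 11.3% to 85.2% against Ckb. Casq2 rose from 44.5 to 1920 TPM and remained above Casq1, which held 30.9% at the end. Dmd, dystrophin, held 47.4% against Utrn, utrophin. Eef1a2, the muscle and nerve form of the elongation factor, was at 4.68, 4.42, 5.7 and 4.17 TPM in fused myotubes, 0.0785% of its pair with Eef1a1, and Rpl3l was at 0.778% of its pair with Rpl3. Ldha was the pair that went the other way, from 93.8% ± 0.439 to 88.3% ± 0.360, since Ldhb rose by 2.22 ± 0.050 and Ldha by 1.19 ± 0.041 on the log2 scale. In the enolases Eno3 went from 55.1% to 79.9%. Eno1 fell by 0.34 ± 0.045 on the log2 scale of scaled counts, but its level per length was 528 TPM in myoblasts and 685 TPM in fused myotubes, and an offset for effective transcript length turned its direction.

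**Figure D3:**
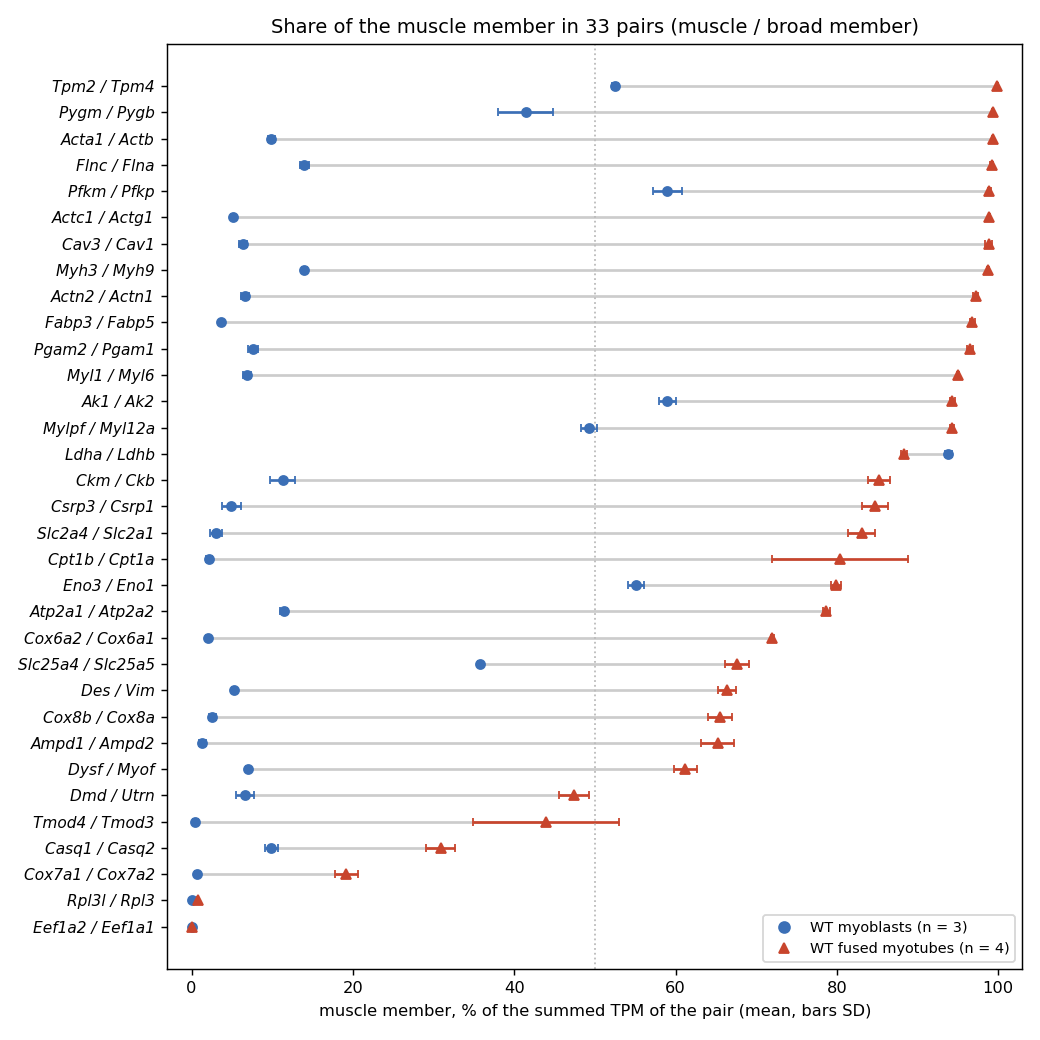
Share of the muscle member in the summed TPM of 33 pairs (muscle member named first), as the mean with SD of 3 WT myoblast libraries (circles) and 4 WT fused myotube libraries (triangles). Most pairs cross 50%, the dotted line, while Eef1a2 and Rpl3l stay near 0 and Ldha declines from 93.8% to 88.3%.

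The net change hides genes that left their start level and came back. Both steps, from myoblasts to differentiated myotubes and from there to fused myotubes, were called and at least 2-fold in 2636 genes (17.4%), where 85.0% and 75.1% of all genes were called at each step. Of these, 532 rose at both steps and 671 fell at both. In 1058 genes a rise was followed by a fall, and in 375 a fall by a rise. A gene was taken to have returned when, besides opposite steps, the 95% interval of its net log2 fold change lay within 0.26 of 0, which is 1.2-fold. This held for 42 genes (0.278%), 24 after a rise and 18 after a fall, and in 8 of them the small net change was still called. Of the genes that rose and then fell, 378 ended above their start, 147 ended below it, and 509 had neither a called net change nor an interval this narrow. Of those that fell and then rose, 178 ended below their start, 74 above it and 105 had neither. The net interval lay within 1.2-fold in 986 genes (6.52%), and in 243 of these both steps did too. The number of returned genes rests on the margin of the interval and on the minimum of 2-fold for each step. It was 159 with a margin of 1.5-fold and 688 with no minimum for the steps.

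**Figure D4:**
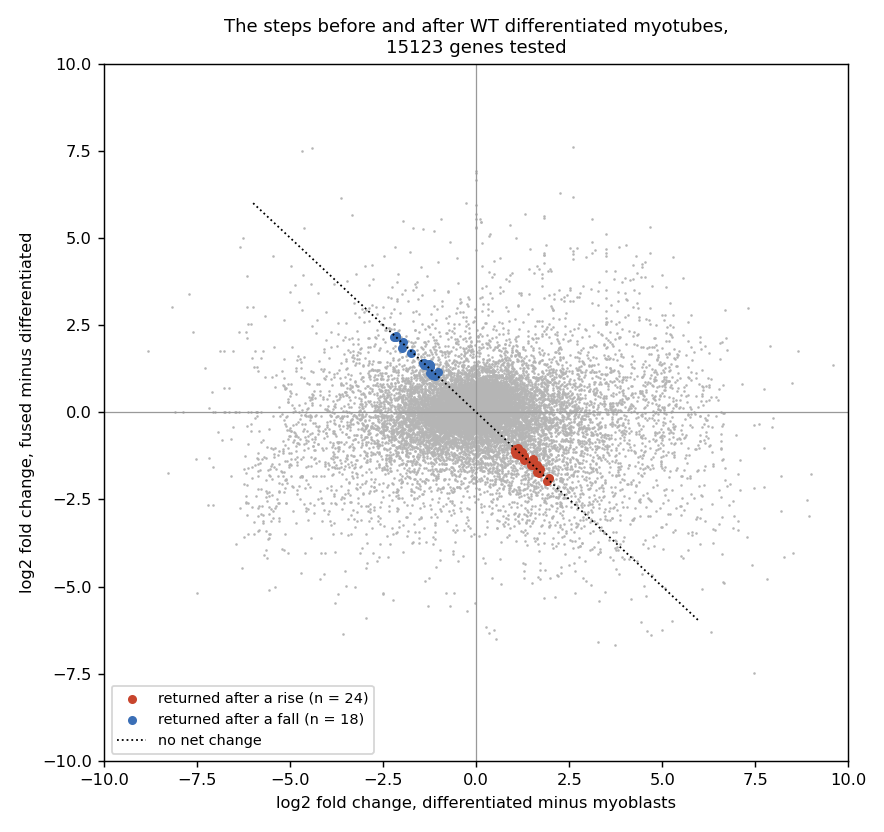
Log2 fold change of the step from myoblasts to differentiated myotubes (horizontal) against that from differentiated to fused myotubes (vertical) in WT libraries, for each of 15123 genes tested. The dotted line marks no net change, and both steps share the differentiated libraries; the 24 genes that returned after a rise (red) and the 18 that returned after a fall (blue) lie near it by the rule.

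Which genes returned depends on the scaling. By library size alone 39 genes met the rule, of which 1 was among the 42, and with the offset for effective length 22 met it, of which 13 were among them. DESeq2 gave 35, all shared, and leaving out 1 WT library gave between 31 and 45.

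Among the genes that rose and came back, Ilkap, a phosphatase that acts on integrin-linked kinase signalling, was at 82.7, 80.6 and 83.2 CPM in myoblasts, 271, 268 and 252 CPM in differentiated myotubes and 79.1, 78.9, 80.7 and 79.3 CPM in fused myotubes. Its net log2 fold change was -0.05, with a 95% interval of -0.12 to 0.03. Ift20, a protein of transport within cilia, was at 17.6, 16.2 and 15.2 CPM, then 64.5, 65.0 and 59.4 CPM, then 16.8, 16.6, 18.5 and 16.9 CPM. Tmem119, a membrane protein known from bone-forming cells and microglia, was at 62.1, 51.3 and 62.0 CPM, then 233, 208 and 219 CPM, then 53.5, 52.1, 58.9 and 61.1 CPM. In each the first and last libraries overlapped and the middle ones stood apart. The others named by the same rule were Kif13b, Prkd1, Zfp521, Pip4k2a and Clcn6. Their group means were 11.6 to 20.9 CPM in myoblasts, 35.9 to 65.4 CPM in differentiated and 10.8 to 22.9 CPM in fused myotubes.

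Among the genes that fell and came back, Asap2, a regulator of Arf GTPases, was at 26.2, 26.4 and 26.2 CPM, then 5.36, 5.62 and 6.44 CPM, then 28.3, 25.1, 27.7 and 25 CPM. Its net log2 fold change was 0.01, with a 95% interval of -0.11 to 0.14. Aig1, a membrane hydrolase, was at 37.7, 31.2 and 34.5 CPM, then 9.53, 9.05 and 8.1 CPM, then 36.1, 34.6, 37.7 and 34.1 CPM. Steap3, which reduces iron taken up with transferrin, was at 36.3, 37.5 and 40.0 CPM, then 11.1, 9.75 and 12.7 CPM, then 38.3, 37.2, 38.7 and 33.0 CPM. Tgfb1, the growth factor TGF-beta 1, was at 9.74, 8.99 and 10.7 CPM, then 3.46, 3.61 and 3.77 CPM, then 8.4, 9.77, 12 and 9.03 CPM. In these 4 genes every differentiated library lay below every library of either end. Emb, Mcpt8, Syt12 and Tmem164 completed the 8 named.

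The contrasts of the rule were between WT groups alone, but the KO-labelled libraries entered the fit behind its calls and intervals. They are therefore not an independent check. With the WT libraries alone in the fit, 38 genes met the rule, all among the 42. In the KO-labelled libraries both steps of the 42 genes went in the WT directions, but most of the genes did not meet the rule. The 42 were chosen for large steps and narrow intervals, so all genes are not a matched baseline for their shares. In all 42 genes both KO-labelled steps were called in the directions of the WT steps, where 83.7% and 70.2% of all genes were called in either direction. The whole rule was met there by 14 of the 42, where 59 of 15123 genes (0.39%) met it, and the net interval was within 1.2-fold in 18 of the 42 against 917 genes (6.06%) in all. Ilkap and Asap2 had KO-labelled net log2 fold changes of 0.00 and -0.16. Tmem119 did not return there: it was at 27.7, 29.5 and 32.5 CPM, then 172 and 198 CPM, then 77.1, 72.9, 63.7 and 66.7 CPM, and its net change differed between the labels by 1.28 on the log2 scale (edgeR adjusted p 5.75e-09).

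**Figure D5:**
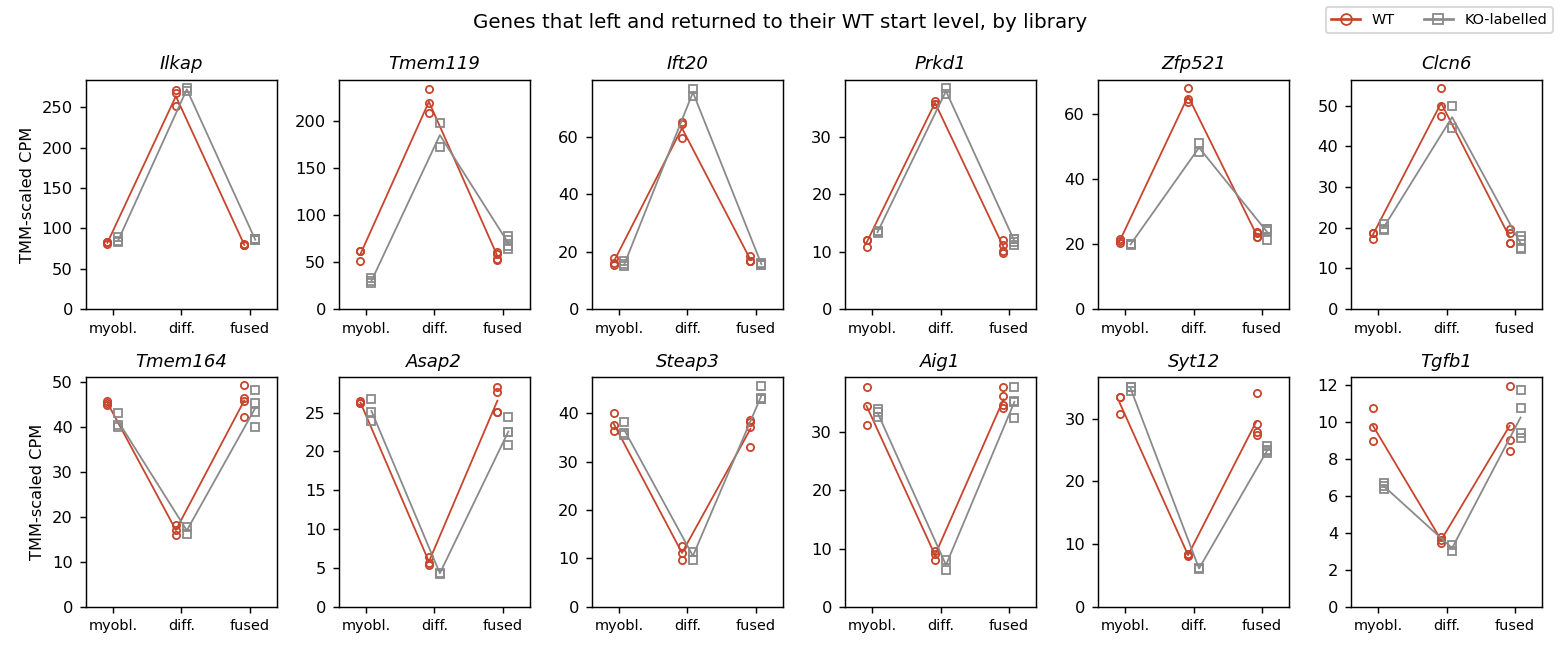
TMM-scaled CPM of 12 genes named as returned, with a point for each library at the myoblast, differentiated and fused stages, lines through the means, WT in red and KO-labelled in grey. The upper row and the lower row show excursions in opposite directions, and the WT values of the first and last stage overlap or lie close, as in Ilkap at a mean of 82.2 and 79.5 CPM.

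Across all genes the net change of the KO-labelled libraries differed from that of the WT libraries in 1557 of 15123 genes (10.3%), and by at least 2-fold in 150 (0.992%). With the offset for effective length the first of these counts was 665. Among the dominant genes of either end, Mylpf rose by 0.90 ± 0.088 and Acta1 by 0.86 ± 0.094 more on the log2 scale in the KO-labelled libraries, while Eef1a1, Gapdh and Aldoa differed by -0.05, 0.03 and 0.05 and were not called. These differences rest on labels that the scaled count of Glud1 did not separate.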

How the data were processed

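RNA of 19 libraries was quantified by the authors with kallisto 0.46.1 after trimming with fastp 0.20.0, with build GRCm38.p6, per the submitters' processing notes, and libraries were made with an mRNA kit, per the labels. The deposited files give, for each of 121843 transcripts, an estimated count, which need not be whole because reads shared by transcripts are divided, a TPM value scaled by the authors for effective length and depth, and the effective length. Here 121018 transcripts matched the GENCODE M21 annotation, and estimated counts were summed over 35598 genes and rounded. The 825 unmatched transcripts held 0.255% to 0.507% of counts and were left out. All 19 libraries entered 1 edgeR fit (4.0.16, R 4.3.3) with a coefficient per group, filterByExpr (15123 genes kept), TMM scaling, quasi-likelihood tests and Benjamini-Hochberg adjustment, called under 0.05. CPM are TMM-scaled. Standard errors and 95% intervals come from that fit, with a common biological coefficient of variation of 4.03%. The fit was run on simulated counts first. In those few genes changed and rises were as many as falls, so the run does not test the scaling of these data, where most genes differed. TPM entered levels, shares and an exact permutation test, since TPM keep no depth. Replicates of both groups differed by more than counting noise (chi-square per degree of freedom 2.31 to 5.81), so none was counted as a copy. Floors of 3 counts per library cover counting error only.

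Promoters come from RefSeq. Genes were named by rule: the 12 largest rises and 12 largest falls among called genes whose groups did not overlap and whose higher group averaged 10 CPM or more, the 15 most abundant genes and the 10 largest gains and losses of TPM, 8 returned genes per direction with at least 5 CPM, the extreme, most abundant and opposite members of each list, and all pairs but 2, which are not reported here. Members and lists were chosen with earlier results of these data known. Alternatives were DESeq2 1.42.0, other scalings and filters, fewer libraries, a replicate block, an effective-length offset and each WT library left out.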

Additional observations from a re-analysis of the deposited data

Results flagged for a closer look

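The net change of a gene named above, fused minus myoblasts, was flagged where it differed between the KO-labelled and the WT libraries by the edgeR quasi-likelihood test of the difference itself, adjusted over all genes tested. Values are KO-labelled minus WT on the log2 scale, and a positive value means a higher net change in the KO-labelled libraries. Adjusted p-values ran from 5.75e-09 in Tmem119 to 0.0453 in Cpt1a. Among genes of the sarcomere and its filaments, the differences were 0.86 for Acta1, 0.60 for Actn2, 0.33 for Des, 0.47 for Myl1, 0.48 for Myl4, 0.90 for Mylpf, -1.28 for Myh4, 0.49 for Tnnc2, 0.45 for Tnnt3 and -0.44 for Tpm3. Among genes of membranes, calcium and fusion they were 0.45 for Atp2a1, -0.18 for Atp2a2, -0.63 for Casq1, 0.33 for Casq2, 0.37 for Cav3 and 0.44 for Mymk. Among metabolic genes they were 0.63 for Ckb, 0.92 for Cox6a2, 0.73 for Cox8b, -0.33 for Cpt1a, -0.21 for Eno3 and 0.60 for Pgam2. Among regulators and growth factors they were -0.19 for Ankrd1, 0.44 for Ccnd1, 0.31 for Ccnd3, -0.34 for E2f2, 0.29 for H19, 0.95 for Igf2, 0.57 for Mef2c, 0.88 for Mstn, -0.33 for Myf5, 0.62 for Myog and 0.34 for Spry1. Among genes of the non-muscle cytoskeleton and general machinery they were -0.34 for Actb, -1.04 for Flna, -0.26 for Ftl1, -0.20 for Npm1, -0.32 for Rrm2, 0.34 for S100a6 and 0.27 for Vim. Among genes that returned in the WT libraries they were 0.31 for Steap3, -0.35 for Syt12, 0.67 for Tgfb1 and 1.28 for Tmem119. The count of such genes over the whole table is 1557 with TMM scaling and 665 with an offset for effective length, and the scaled count of Glud1 did not separate the labels.

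In the 4 WT fused myotube libraries, 8 of 123 sets of values held 1 library far from the others by Dixon's 95% criterion, which chance alone meets in about 1 of 20. Replicate 4 was at 4860 CPM for Atp2a1 (median of the 4 libraries 5300), at 321 CPM for Cdh2 (median 285), at 11 CPM for Hrh3 (median 9.82) and at 125 CPM for Pcx (median 129). Replicate 3 was at 1390 CPM for Chrng (median 1340), at 9.74 CPM for Eef1a2 (median 7.46) and at 18.5 CPM for Ift20 (median 16.8). Replicate 2 was at 7.30 CPM for Emb (median 6.24).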

How the results depend on the processing

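The count of genes called (12936) and of those changed at least 2-fold (7631) stayed within 1.5 times under every alternative run. Of the called genes 49.3% were higher, 39.5% with library size only and 48.3% with no filter. The number of returned genes (42) was 159 with a margin of 1.5-fold, 688 with no minimum fold for the steps and 22 with an offset for effective transcript length, and that offset gave 665 genes in place of 1557 for the difference between the labels. The gain of the top 100 genes, 5.23 points of TPM, was 2.52 without mitochondrially encoded genes, 4.42 over the top 1000 genes and 11.2 on estimated counts. Leaving out 1 WT library at a time, and no KO-labelled one, gave 12609 to 12809 genes called, 7514 to 7605 changed at least 2-fold, 31 to 45 returned, 1052 to 1554 for the difference between the labels, 5.06 to 5.58 points and 49.1% to 49.4% higher. With library size only, the net log2 fold change turned negative for Aig1 (-0.28), Asap2 (-0.31), Emb (-0.32), Ift20 (-0.25), Kif13b (-0.26), Pip4k2a (-0.31), Tmem164 (-0.30) and Zfp521 (-0.19), near the shift of the median of all genes. With the effective-length offset it was 0.64 for Eno1, 0.68 for Tpm3 and -0.20 for Ift20; the cause was not tested. The replicate block gave 12676 genes called, 7571 changed at least 2-fold, 39 returned and 1291 for the difference. Same-numbered libraries of both ends did not deviate together (r across genes 0.0141, -0.0122 and 0.0381), so the numbers were not used as pairs. Depth limits the folds of genes with few reads at 1 end, such as Hephl1 and Mki67.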
